A study of Homo sapiens with 18 samples.

Results

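Expression of 10 genes of the Notch pathway was followed in SH-SY5Y cells: the receptors NOTCH1, NOTCH2 and NOTCH3, the ligands DLL1, DLL3 and JAG1, the transcriptional repressors HES1, HES6 and HEY1, and DLK1, a non-canonical ligand. They were chosen by symbol from a table of 26372 genes measured by RNA-seq, and all 10 symbols were found. SH-SY5Y is an established line of human neuroblastoma, a tumour of the sympathetic nervous system, which can be driven towards neuron-like cells in culture. Every group carried a lentiviral ZNHIT3 construct made from the FUGW plasmid: the wild-type sequence (WT), the C14R substitution or a deletion. The product of ZNHIT3 has a HIT-type zinc finger, and the title of the series names the assembly of small nucleolar ribonucleoproteins as the process its variants disturb. Each construct was sampled at day 0 and at day 18 of differentiation, which gave 6 groups of 3 libraries. Differentiation was carried out in serum-free Neurobasal medium with B27, all-trans retinoic acid, BDNF, dibutyryl cAMP and KCl, after growth in medium with serum. By the protocol, differentiation began 48 hours after infection in every group. Day, time since infection, medium, serum and the 4 added agents therefore change together and cannot be told apart. No group without a lentiviral construct was among the samples. The deletion is labelled 251-254, 251-255 and 251-256 in its 3 replicates, and it is called the deletion here. The labels do not say whether the 3 libraries of a group came from separate cultures, so p-values measure the spread between libraries, which may be technical.

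Notch receptors are cut after a ligand on a neighbouring cell binds, and the freed intracellular domain moves to the nucleus, where it joins the DNA-binding protein RBPJ and Mastermind-like co-activators. HES and HEY genes are the classical targets, and their products repress proneural genes such as NEUROG2. In the developing nervous system the pathway is known for holding cells in a progenitor state, and HES6 is an atypical member that can oppose HES1. DLL3 and DLK1 are unusual ligands: DLL3 acts mainly on Notch within its own cell, and DLK1, an imprinted gene, lacks the DSL domain with which canonical ligands bind the receptors.

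HES1 and HES6 moved in opposite directions between day 0 and day 18, and their promoters are shown because RBPJ and HES proteins recognise short known motifs. The stretches are the 250 bases before each start site in RefSeq (GRCh38.p14), chr3:194135898-194136147 on the plus strand for HES1 and chr2:238240039-238240288 on the minus strand for HES6, printed 5′ to 3′ in the direction of transcription. Capitals mark TGGGAA, the RBPJ core, and CACNAG, the N box bound by HES proteins, on either strand.
HES1: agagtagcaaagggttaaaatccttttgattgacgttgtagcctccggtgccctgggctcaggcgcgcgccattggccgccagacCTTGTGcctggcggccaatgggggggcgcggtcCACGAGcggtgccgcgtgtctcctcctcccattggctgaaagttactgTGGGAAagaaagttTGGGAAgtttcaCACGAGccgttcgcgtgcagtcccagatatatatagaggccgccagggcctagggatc
HES6: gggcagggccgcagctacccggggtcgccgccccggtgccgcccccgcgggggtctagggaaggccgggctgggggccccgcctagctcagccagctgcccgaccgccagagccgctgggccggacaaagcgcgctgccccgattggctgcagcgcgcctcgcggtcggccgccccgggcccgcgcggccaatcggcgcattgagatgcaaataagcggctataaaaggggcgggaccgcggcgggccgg
The HES1 stretch held 2 RBPJ cores, which began 84 and 70 bases before the start site, and N boxes that began 165, 132 and 58 bases before it. An additional N box began 15 bases after the start site, which made 4 in the 300-base window of the RefSeq table (250 bases before to 50 after the start). The HES6 window held neither motif. GENCODE release 29 begins the HES6 gene further upstream, at 238240662, so the stretch shown lies inside the gene as annotated there, and the region before that start was not searched. Among 35116 RefSeq promoter windows of that length, 24% held TGGGAA and 38% held CACNAG. The palindromic E box CACGTG, present in 7.26% of windows, was in none of the 6 windows matched to these genes (NOTCH1, NOTCH2, NOTCH3, JAG1, HES1 and HES6). No RBPJ core was in the windows of NOTCH1, NOTCH2, NOTCH3 or JAG1, whereas NOTCH1 held 2 N boxes and NOTCH2 and NOTCH3 held 1 each.

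The libraries showed the labelled identity and treatment to different degrees. The summed level of 8 markers of the sympathetic lineage was 781 to 849 FPKM (fragments scaled to gene length and to the mapped fragments of the library) at day 0 and 1133 to 1302 FPKM at day 18. DBH, which makes noradrenaline, carried most of the rise, from a mean of 64.0 to 445 FPKM with WT. Of 7 markers tested, 3 rose and 2 fell with WT, 4 and 2 with C14R, and 4 and 1 with the deletion, and GATA3, a transcription factor of that lineage, fell in each line. In the same test, given below, 38.2% of all genes were higher and 34% lower with WT. The shares were 37.9% and 35% with C14R, and 38.6% and 34.4% with the deletion. TH, the first enzyme of catecholamine synthesis, was at or below 1.02 FPKM in every library. Mean ZNHIT3 was 538, 424 and 302.5 FPKM with WT, C14R and the deletion at day 0, and 1153, 653 and 301.5 FPKM at day 18, so its measured level differed between constructs as well as its sequence. The difference of C14R from WT at day 0 did not pass (-0.34, limma adjusted p = 0.352), and the other differences from WT did. Values per gene symbol do not separate the cells' own ZNHIT3 from that of the construct. The C14R library of day 18 replicate 1 stood somewhat apart: its correlation with the other 8 libraries of day 18 across genes was 0.981 to 0.988, against 0.988 to 0.994 among those 8, and it was the lowest of the 9 for NOTCH1, NOTCH2, NOTCH3, DLL3 and HES6. The absolute depth is unknown, and by the steps between low values day 0 libraries had 59.0% to 84.4% and day 18 libraries 81.8% to 100% of the depth of the deepest library. Fewer cells of a type and less RNA per cell cannot be told apart in these bulk samples.

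At day 0, NOTCH2 was the most abundant of the 10 genes per length, with a mean of 28.0 FPKM over the 9 libraries, followed by DLK1 with 16.3 FPKM. HEY1, NOTCH3, HES1 and JAG1 followed with 10.1, 8.49, 7.23 and 6.85 FPKM, and neighbours in this order overlapped. HES6, NOTCH1 and DLL3 lay at 4.16, 3.90 and 3.04 FPKM, separate from JAG1 above them and each overlapping with the next, while DLL1 was separate at 0.0539 FPKM. At day 18 the order was different: DLK1 led with 69.1 FPKM, followed by NOTCH2 and HEY1, which overlapped at 18.1 and 17.9 FPKM. HES6 had moved up to 9.80 FPKM and HES1 down to 3.63 FPKM, with NOTCH3 (8.38), JAG1 (5.83) and DLL3 (4.52) between them, each overlapping with the next. NOTCH1, at 0.932 FPKM, and DLL1, at 0.442 FPKM, closed the order at day 18, each separated from the gene above it.

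**Figure D1:**
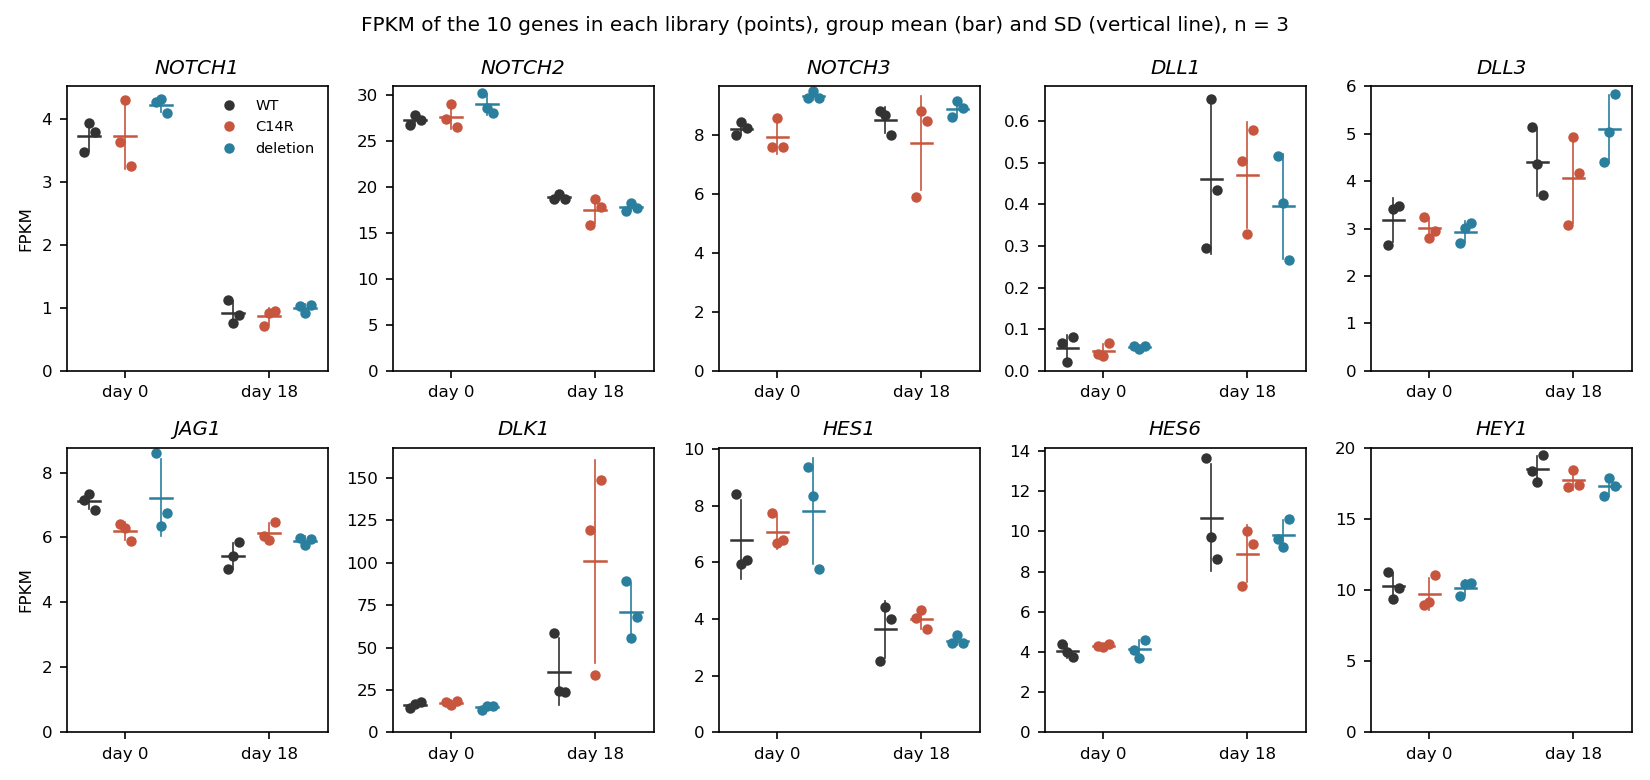
FPKM of each of the 10 genes (vertical axis, linear, a scale of its own per panel) in the WT, C14R and deletion libraries of day 0 and day 18; points are libraries, horizontal bars are means and vertical lines are SD (n = 3). NOTCH1 fell from 3.27 to 4.33 FPKM at day 0 to 0.719 to 1.13 FPKM at day 18, and DLK1 spread from 24.1 to 149 FPKM at day 18.

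Most of these genes changed between day 0 and day 18, in both directions. DLL3, HES6, HEY1 and DLK1 rose and NOTCH1, NOTCH2 and HES1 fell in each line, JAG1 fell with WT and the deletion, and NOTCH3 passed the test in none. Of the 10 genes, 9 had a mean of at least 1 FPKM and were tested; NOTCH1 was above that mean through day 0. With WT, 8 of 9 passed an adjusted p of 0.05 (limma on log2(FPKM + 1), Benjamini-Hochberg over 13785 genes), 4 higher and 4 lower, where 72.2% of all genes tested passed, 38.2% higher and 34% lower. With C14R, 7 of 9 passed, 4 higher and 3 lower, against 72.9% of all genes, 37.9% higher and 35% lower. With the deletion, 8 of 9 passed, 4 higher and 4 lower, against 73% of all genes, 38.6% higher and 34.4% lower. These shares were near those of all genes tested. Their median log2 difference was 0.043 with WT, -0.013 with C14R and -0.063 with the deletion, beside 0.026, 0.019 and 0.029 over all genes tested. When small RNA genes were left out and the libraries rescaled, the median over all genes moved to 0.21, 0.18 and 0.22. The higher genes' share of all calls then rose from 52.9%, 52.0% and 52.8% to 68.6%, 66.4% and 69.4%. Among the 9 genes the split under this scaling was 5 higher and 3 lower with WT, 4 and 3 with C14R, and 4 and 3 with the deletion.

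**Figure D2:**
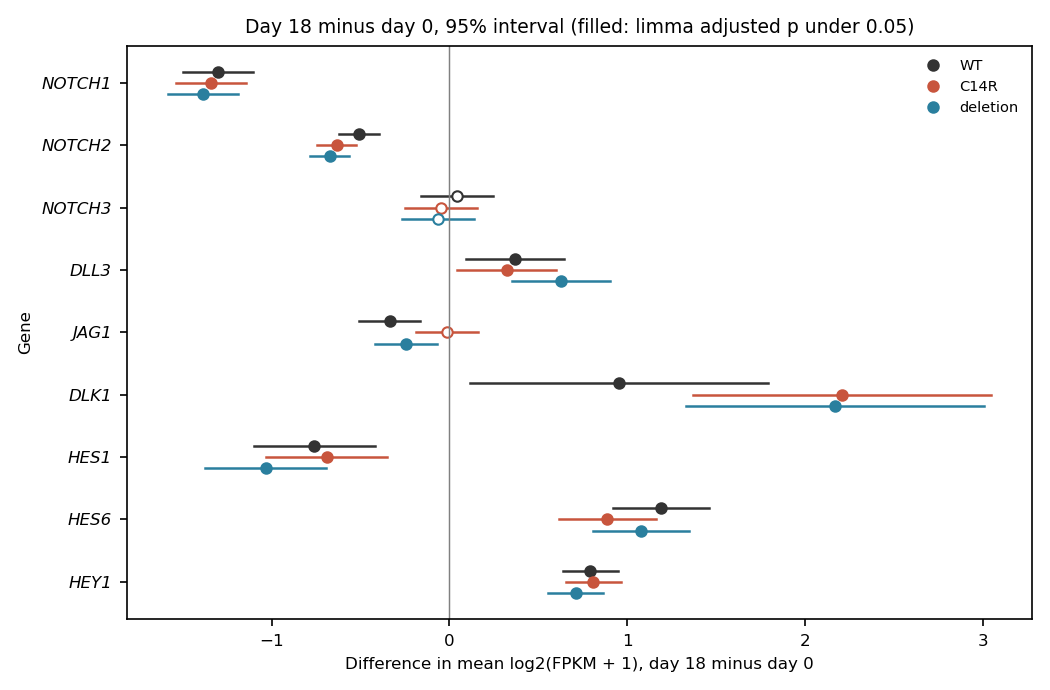
Difference of day 18 minus day 0 in mean log2(FPKM + 1) (horizontal axis) for the 9 genes tested, with 95% intervals, in WT (black), C14R (red) and deletion (blue); filled points passed a limma adjusted p of 0.05. HES6, HEY1, DLL3 and DLK1 lie to the right of 0 in each line, NOTCH1, NOTCH2 and HES1 to the left, and NOTCH3 spans 0.

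NOTCH1 had the steepest fall of the receptors, NOTCH2 fell by a smaller proportion, and NOTCH3 stayed between 5.91 and 9.49 FPKM throughout. NOTCH1 and NOTCH2 are the receptors expressed in most tissues, and NOTCH3 is best known from vascular smooth muscle. NOTCH1 measured 3.47, 3.94 and 3.79 FPKM with WT at day 0 and 1.13, 0.762 and 0.891 FPKM at day 18. With C14R it went from 3.64, 4.31 and 3.27 to 0.719, 0.926 and 0.955 FPKM, and with the deletion from 4.27, 4.33 and 4.10 to 1.03, 0.924 and 1.05 FPKM. Every library of day 18 lay below every library of day 0. Mean NOTCH1 at day 18 was 0.248 of its day 0 level with WT, 0.232 with C14R and 0.236 with the deletion. The log2(FPKM + 1) differences were -1.30, -1.34 and -1.39 (SE 0.093, adjusted p = 1.05e-09, 7.00e-10 and 4.17e-10). A pseudocount of 1 understates the change of a gene at this level.

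NOTCH2 was 26.7, 27.9 and 27.3 FPKM with WT at day 0 and 18.8, 19.2 and 18.7 FPKM at day 18. The C14R libraries held 27.4, 29.1 and 26.5 FPKM and then 15.9, 18.8 and 17.8 FPKM, and the deletion libraries 30.3, 28.7 and 28.1 FPKM and then 17.4, 18.2 and 17.7 FPKM. The days did not overlap in any line. Differences of -0.51, -0.63 and -0.67 (SE 0.052, adjusted p = 1.21e-07, 6.80e-09 and 2.93e-09) left 0.692, 0.632 and 0.613 of the day 0 mean. NOTCH2 values are uncertain in one respect: the human genome holds near-identical partial copies, NOTCH2NL was listed separately at 2.36 to 4.43 FPKM, and how reads were divided between them is not given in the sources used here.

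NOTCH3 was 8.01, 8.44 and 8.23 FPKM with WT at day 0 and 8.83, 8.68 and 8.0 FPKM at day 18. The C14R libraries gave 7.60, 8.57 and 7.60 FPKM and then 5.91, 8.82 and 8.49 FPKM, and the deletion libraries 9.25, 9.49 and 9.27 FPKM and then 8.62, 9.17 and 8.90 FPKM. The days overlapped with WT and C14R, and the deletion libraries of day 18 lay just below those of day 0. The differences were 0.043 with WT (95% interval -0.16 to 0.24), -0.046 with C14R (-0.25 to 0.16) and -0.063 with the deletion (-0.26 to 0.14), and none passed (adjusted p = 0.698, 0.677 and 0.570). Without the C14R library of day 18 replicate 1, the C14R difference was 0.11 (adjusted p = 0.0909), and with small RNA genes left out the WT difference was 0.23 and passed (adjusted p = 0.0359).

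The receptors' mix shifted within each library, a comparison that no scaling between libraries can change. NOTCH1 made up 8.74% to 10.3% of the summed FPKM of the 3 receptors at day 0 and 2.66% to 3.94% at day 18. NOTCH3 went from 19.7% to 22.4% up to 26.2% to 32.4%, and NOTCH2 kept the largest share, 67.5% to 70.9% and then 64.0% to 70.6%. The shares of NOTCH1 and of NOTCH3 did not overlap between days, and those of NOTCH2 did. The sum itself was 37.4 to 43.8 FPKM at day 0 and 22.5 to 28.7 FPKM at day 18.

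Among the ligands, DLL3 rose modestly in each line, JAG1 fell with WT and the deletion, and DLL1 was close to undetected at day 0 and low at day 18. DLL1 and JAG1 are canonical ligands that activate receptors on neighbouring cells. DLL3 measured 2.65, 3.42 and 3.48 FPKM with WT at day 0 and 5.14, 4.35 and 3.71 FPKM at day 18. The values with the deletion were 2.69, 3.0 and 3.11 FPKM and then 4.41, 5.04 and 5.84 FPKM. With C14R they were 3.24, 2.81 and 2.96 FPKM and then 3.08, 4.93 and 4.16 FPKM. The days were separate with WT and the deletion, and with C14R a single library of day 18, replicate 1, fell within the range of day 0. The differences were 0.37 with WT, 0.32 with C14R and 0.63 with the deletion (SE 0.13, adjusted p = 0.0185, 0.0359 and 0.000363).

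The calls of DLL3 with WT and C14R rested on few libraries. Without replicate 1 of WT at day 0 or at day 18 the WT difference was 0.27 (adjusted p = 0.0990 and 0.0978). The C14R difference was 0.20 (adjusted p = 0.195) without replicate 2 of C14R at day 18 and 0.47 (adjusted p = 0.00295) without replicate 1. It also missed the threshold without replicate 3 of C14R at day 18 (0.30, adjusted p = 0.0874), and when replicate 2 or replicate 3 of C14R at day 0 was left out singly (0.29 and 0.31, adjusted p = 0.10 and 0.0752).

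JAG1 measured 7.17, 7.35 and 6.86 FPKM with WT at day 0 and 5.04, 5.43 and 5.85 FPKM at day 18. With the deletion it measured 8.59, 6.35 and 6.75 FPKM and then 5.99, 5.76 and 5.97 FPKM, and with C14R 6.42, 6.31 and 5.89 FPKM and then 6.03, 5.91 and 6.48 FPKM. The days were separate with WT and the deletion and overlapped with C14R. The differences were -0.34 with WT and -0.24 with the deletion (adjusted p = 0.00137 and 0.0131), and -0.013 with C14R (95% interval -0.19 to 0.16, adjusted p = 0.895). With small RNA genes left out, JAG1 passed in no line: the differences were -0.16 with WT (adjusted p = 0.104) and -0.053 with the deletion (adjusted p = 0.580). Without replicate 1 of the deletion at day 0, the deletion difference was -0.13 (adjusted p = 0.108).

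DLL1 lay between 0.0210 and 0.0812 FPKM in the 9 libraries of day 0. At day 18 it measured 0.295, 0.653 and 0.435 FPKM with WT, 0.504, 0.329 and 0.579 FPKM with C14R, and 0.517, 0.403 and 0.266 FPKM with the deletion. Every library of day 18 was above every library of day 0. DLL1 was below the filter of a mean of 1 FPKM and was tested only in the fit without it, where its differences were 0.46, 0.48 and 0.40 (adjusted p = 0.000179, 0.000112 and 0.000682). In that fit 54.2% of all genes passed with WT, 53.9% with C14R and 54.6% with the deletion. In GENCODE release 29 the DLL1 gene overlaps FAM120B on the opposite strand over 15863 bases, and whether strand was used in counting is not given in the sources used here.

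The 3 repressors divided: HES1 fell while HES6 and HEY1 rose in each line. HES1 is the best known direct target of Notch in neural progenitors, HES6 is expressed in committed neuronal precursors, and HEY1 is a Notch target best known from blood vessels. HES1 was 8.40, 5.93 and 6.08 FPKM with WT at day 0 and 2.51, 4.41 and 3.99 FPKM at day 18. With C14R it was 7.74, 6.68 and 6.79 FPKM and then 4.02, 4.33 and 3.65 FPKM, and with the deletion 9.38, 8.35 and 5.75 FPKM and then 3.14, 3.42 and 3.16 FPKM. All day 18 libraries lay below all day 0 libraries. The mean fell to 0.535, 0.566 and 0.414 of its day 0 level, with log2 differences of -0.76, -0.69 and -1.03 (SE 0.16, adjusted p = 0.000426, 0.000998 and 1.84e-05). The SD of HES1 within groups at day 0, 0.24 on the log2 scale, was above that of 96.6% of the genes tested.

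HES6 was 4.42, 4.02 and 3.73 FPKM with WT at day 0 and 13.7, 9.74 and 8.64 FPKM at day 18. The C14R libraries held 4.30, 4.24 and 4.39 FPKM and then 7.30, 10.03 and 9.37 FPKM, and the deletion libraries 4.09, 3.69 and 4.61 FPKM and then 9.62, 9.21 and 10.6 FPKM. The days did not overlap. Mean HES6 rose 2.64-fold with WT, 2.07-fold with C14R and 2.38-fold with the deletion, by log2 differences of 1.19, 0.89 and 1.08 (SE 0.13, adjusted p = 2.27e-07, 7.76e-06 and 7.56e-07). The whole HES6 gene (chr2:238238267-238240662, 2396 bases) lies within a transcript annotated on the opposite strand, AC012485.1, so without known strand use reads from the pair cannot be told apart.

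HEY1 rose in each line, with little spread between libraries at day 18. It was 11.3, 9.40 and 10.2 FPKM with WT at day 0 and 18.4, 17.7 and 19.5 FPKM at day 18. With C14R it went from 8.93, 9.21 and 11 to 17.3, 18.5 and 17.4 FPKM, and with the deletion from 9.57, 10.5 and 10.5 to 16.6, 17.9 and 17.4 FPKM. No library of day 18 was within the range of day 0. The rise was 1.80-fold, 1.82-fold and 1.70-fold, with differences of 0.79, 0.81 and 0.71 (SE 0.074, adjusted p = 3.29e-08, 2.52e-08 and 1.30e-07). Its SD within groups at day 18, 0.057, was above that of 12.7% of the genes tested. At day 0 the SD was larger, 0.12, above that of 75.9% of genes.

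With HES1 lower and HES6 and HEY1 higher, the balance of the repressors within a library shifted between the days. The ratio of HES6 to HES1 in FPKM was 0.437 to 0.801 at day 0 and 1.81 to 5.44 at day 18, with medians of 0.613 and 2.57. HES1 was thus the more abundant of this pair in every library of day 0 and HES6 in every library of day 18. The ratio of HEY1 to HES1 went from 1.02 to 1.83 at day 0 up to 4.0 to 7.31 at day 18. Both ratios are independent of the scaling between libraries.

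DLK1 rose in each line and was the most variable of the 9 genes tested at day 18. It measured 14.3, 16.7 and 18.2 FPKM with WT, 17.8, 16.3 and 18.8 FPKM with C14R, and 13.3, 15.6 and 15.5 FPKM with the deletion at day 0. At day 18 it was 58.4, 24.5 and 24.1 FPKM with WT (35.6 ± 19.7, SD, n = 3), 119.5, 34.0 and 149 FPKM with C14R (100.8 ± 59.7), and 89.1, 55.8 and 68.1 FPKM with the deletion (71.0 ± 16.8). All 9 libraries of day 18 were above all 9 of day 0, and the highest library of C14R and of WT was more than 2 times the lowest of its group. The SD within groups at day 18 was 0.80 on the log2 scale, against a median gene of 0.10 and above that of 99.8% of the genes tested. At day 0 it was 0.13, above that of 80.9% of genes.

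Mean DLK1 rose 2.17-fold with WT, 5.72-fold with C14R and 4.8-fold with the deletion, by log2 differences of 0.96, 2.21 and 2.17 (SE 0.40, adjusted p = 0.0392, 8.43e-05 and 0.000102). The rise with WT rested on replicate 1 of day 18: without it the difference was 0.55 (adjusted p = 0.228). It also missed the threshold without any single WT library of day 0 (0.87, 0.97 and 1.03, adjusted p = 0.104, 0.0701 and 0.0549), and under 2 other settings: no filter on low values gave an adjusted p of 0.0734, and array weights gave 0.0539.

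The order of the 9 libraries of day 18 by DLK1 was nearly the order by RTL1, an imprinted gene of the same region of chromosome 14 that was looked at after the values were seen. DLK1 spans chr14:100725705-100738224 on the plus strand and RTL1 chr14:100879753-100903722 on the minus strand (GENCODE 29, GRCh38). The top 4 libraries were the same for both genes: C14R replicate 3 with 149 and 10.3 FPKM, C14R replicate 1 with 119.5 and 10.1 FPKM, deletion replicate 1 with 89.1 and 8.22 FPKM, and deletion replicate 3 with 68.1 and 7.48 FPKM. The lowest values of both were in WT replicates 2 and 3, with 24.5 and 24.1 FPKM of DLK1 and 3.86 and 5.05 FPKM of RTL1. Against the days, the pair went different ways: RTL1 lay between 8.91 and 15.7 FPKM at day 0 and between 3.86 and 10.3 FPKM at day 18. RTL1 overlaps MEG8 and AL117190.1 on the opposite strand, over 8953 and 23970 bases.

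**Figure D3:**
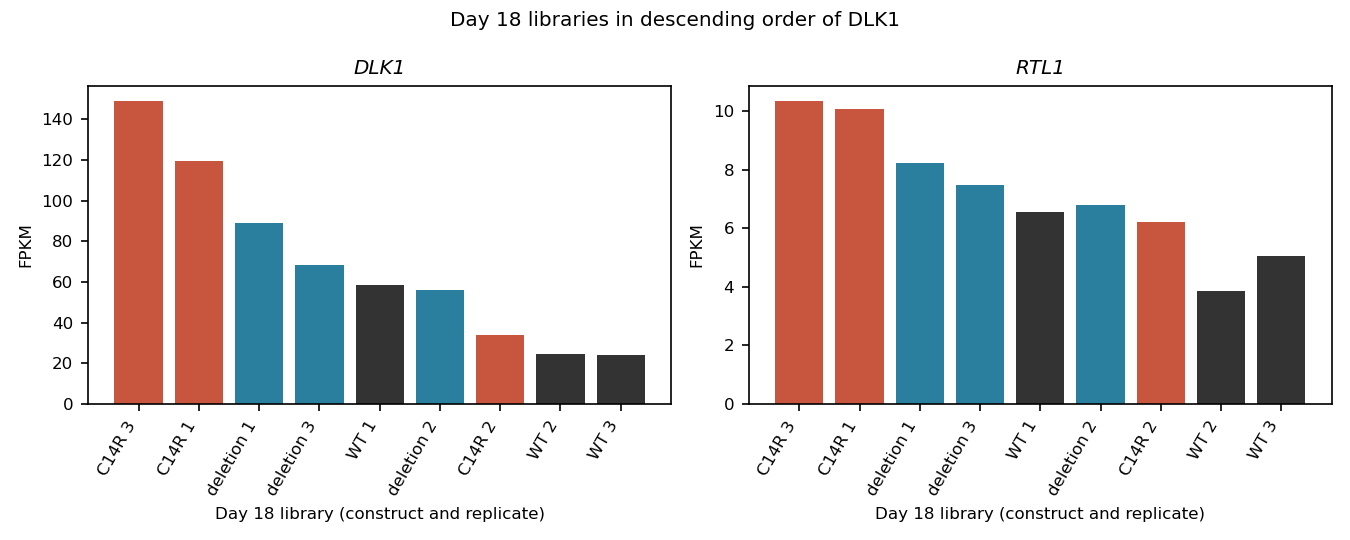
FPKM (vertical axes, from 0) of DLK1 (left) and RTL1 (right) in the 9 libraries of day 18, in descending order of DLK1 and coloured by construct (WT black, C14R red, deletion blue). The bars of RTL1 descend in almost the same order, from 10.3 to 3.86 FPKM, as those of DLK1, from 149 to 24.1 FPKM.

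The constructs were compared at each day to ask whether the ZNHIT3 variants altered these genes. DLK1 showed the widest differences between constructs, at day 18, and none of the 9 genes passed the test in any comparison of constructs or in an interaction of construct and day. Of all genes tested, 0% passed for C14R against WT at day 0 (388 of 13785 at an unadjusted p under 0.05), 0.0363% at day 18 (1535), 0.029% for the deletion against WT at day 0 (857) and 0.0725% at day 18 (1576). For C14R against the deletion 0.058% passed at day 0 (1357) and 0.029% at day 18 (1539). The interactions of C14R and of the deletion with day gave 0% (790 genes at an unadjusted p under 0.05) and 0.0145% (1014). All comparisons with WT share the WT libraries.

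DLK1 at day 18 was higher than with WT by 1.35 on the log2 scale with C14R (95% interval 0.51 to 2.19, adjusted p = 0.187) and by 1.07 with the deletion (0.24 to 1.91, adjusted p = 0.323). C14R replicate 2, with 34.0 FPKM, lay within the WT range of 24.1 to 58.4 FPKM, as did deletion replicate 2 with 55.8 FPKM. Leaving out C14R replicate 2 brought the C14R difference past the threshold (2.00, adjusted p = 0.00444). Weighting the libraries by limma's array weights did so too (1.91, adjusted p = 0.0201). The C14R difference did not pass in 24 of the 26 settings run. Among the 18 fits that left out a single library, it did not pass in 17, with differences down to 0.95 and adjusted p up to 0.414. The rise from day 0 differed from that of WT by 1.25 with C14R and 1.21 with the deletion, which did not pass (adjusted p = 0.848 and 0.663). At day 0 the differences from WT were 0.10 with C14R and -0.14 with the deletion (adjusted p = 1.00 and 0.964).

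For the other 8 genes tested the differences from WT were small, between -0.23 (HES6, C14R, day 18) and 0.18 (DLL3, deletion, day 18). All JAG1 values with C14R lay below those of WT at day 0 (-0.17, 95% interval -0.35 to -0.00044) and above them at day 18 (0.15, -0.022 to 0.32). The receptors with the deletion lay above all WT libraries at day 0, NOTCH1 by 0.15 (-0.051 to 0.34) and NOTCH3 by 0.16 (-0.038 to 0.37). All NOTCH2 values with the deletion lay above those of WT at day 0 (0.084, -0.027 to 0.19) and below them at day 18 (-0.082, -0.19 to 0.029). The share of all genes with such separated libraries was not counted. Intervals for HES1 reached from -0.21 to 0.47 with C14R at day 18 and from -0.45 to 0.24 with the deletion. DLL1, in the fit without the filter, differed from WT by at most 0.063 in size, with the deletion at day 18 (-0.063, adjusted p = 0.850).

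**Figure D4:**
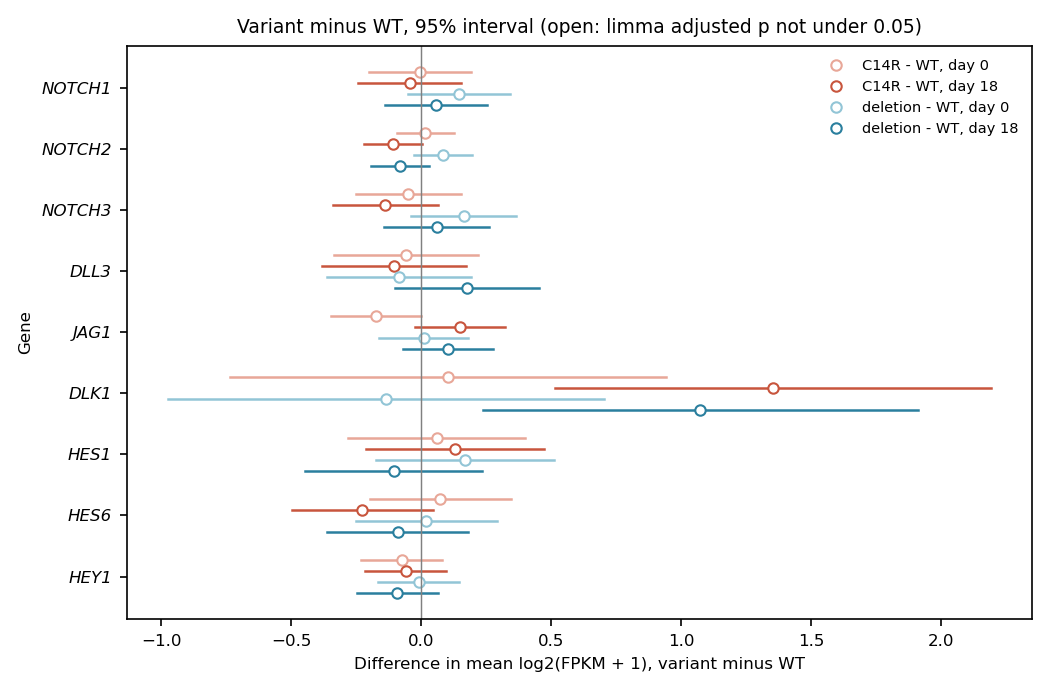
Difference of variant minus WT in mean log2(FPKM + 1) (horizontal axis) for the 9 genes tested, with 95% intervals, for C14R (red) and the deletion (blue) at day 0 (pale) and day 18 (dark); open points did not pass a limma adjusted p of 0.05. DLK1 at day 18 lies at 1.35 with C14R and 1.07 with the deletion, and all other points of day 18 lie between -0.23 and 0.18.

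The rest of the pathway was described with a list of 68 further genes by role, all of them in the table (TLE5 as AES). Of these, 51 had a mean of at least 1 FPKM, and 6 of those passed that filter through one day. Among the 6 were LFNG, through day 0, and TLE2, HES7 and NEUROG2, through day 18. The filter thus favoured a change between the days in the genes of this kind. At day 18, 19 were higher and 19 lower with WT, 19 and 20 with C14R, and 19 and 20 with the deletion, and 16 rose and 18 fell in each of the 3 lines. The medians were -0.019, -0.063 and -0.013. The shares in each line lie close to those of all genes tested, given above. The share of all genes that rose or fell in each of the 3 lines was not counted. With small RNA genes left out, the split was 27 higher and 15 lower with WT, 24 and 16 with C14R, and 29 and 14 with the deletion. No gene of the list passed between constructs.

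Counts by role in the following are for WT unless another line is named, and were made under the main scaling only. Each role has few genes, and of all genes tested 38.2% were higher and 34% lower with WT. Of the other ligands, DNER, a neuronal non-canonical ligand, had the largest rise of the list, from 1.78, 1.95 and 2.06 FPKM with WT at day 0 to 28.4, 26.8 and 27.1 FPKM at day 18 (3.28, adjusted p = 2.13e-16). With C14R and the deletion the difference was 3.33 and 3.43. The days did not overlap in any line. Of the 9 genes of receptor cleavage, 5 rose and 3 fell with WT. FURIN, which processes the receptor in the secretory pathway, had the largest fall (-0.44, from 5.64 to 3.89 FPKM). Of 5 glycosylation genes tested, 1 rose and 3 fell. LFNG, a Fringe enzyme that alters which ligands a receptor answers to, went from 2.76 to 0.738 FPKM (-1.11), and EOGT, which adds GlcNAc to EGF repeats, from 3.80 to 4.82 FPKM (0.28).

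In the machinery of ligand endocytosis, 2 genes rose and 1 fell of 4. The ubiquitin ligase MIB1, needed for ligands to signal, went from 32.6 to 48.5 FPKM (0.56) and NEURL1B, a ligase of the same step, from 7.71 to 4.20 FPKM (-0.74). In the nuclear activator complex, 0 of 7 genes rose and 4 fell with WT, 0 and 3 with C14R, and 2 (RBPJ and MAML3) and 4 with the deletion. Of all genes tested, 37.9% were higher and 35% lower with C14R, and 38.6% and 34.4% with the deletion. MAML2, a Mastermind-like co-activator, had the largest fall with WT (7.10 to 3.17 FPKM, -0.96). RBPJ itself was 22.8 FPKM at day 0 and 23.7 FPKM at day 18 with WT (0.052, adjusted p = 0.317). It did not pass with C14R (0.0013, adjusted p = 0.981) and passed with the deletion (0.11, adjusted p = 0.0464). Of 11 co-repressors, 4 rose and 6 fell. TLE3 went from 12 to 22.1 FPKM (0.83) and TLE1 from 13.3 to 3.53 FPKM (-1.66), and both are Groucho-family proteins that HES factors recruit. Among 9 negative regulators 3 rose and 1 fell: DTX3, a Deltex protein, by 0.38, and NRARP, a feedback inhibitor that is itself a Notch target, by -0.30.

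NEUROG2, a proneural gene whose product drives neuronal differentiation, rose in each line. It measured 0.0663, 0.285 and 0.338 FPKM with WT at day 0 and 2.76, 2.53 and 2.34 FPKM at day 18 (1.53, adjusted p = 1.87e-06), and rose by 1.76 with C14R and 1.78 with the deletion. NEUROG2 and HES7 passed the filter through day 18, so a rise was favoured in their tests. HES7, the oscillator of somite formation, rose from 0.617 to 2.28 FPKM with WT (1.03), while the other HES and HEY genes of the list were below the filter except HES4. HES4 passed with the deletion, from 1.36 to 3.78 FPKM (0.99, adjusted p = 0.00626), and not with WT (0.65, adjusted p = 0.0581) or C14R (0.31, adjusted p = 0.355).

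**Figure D5:**
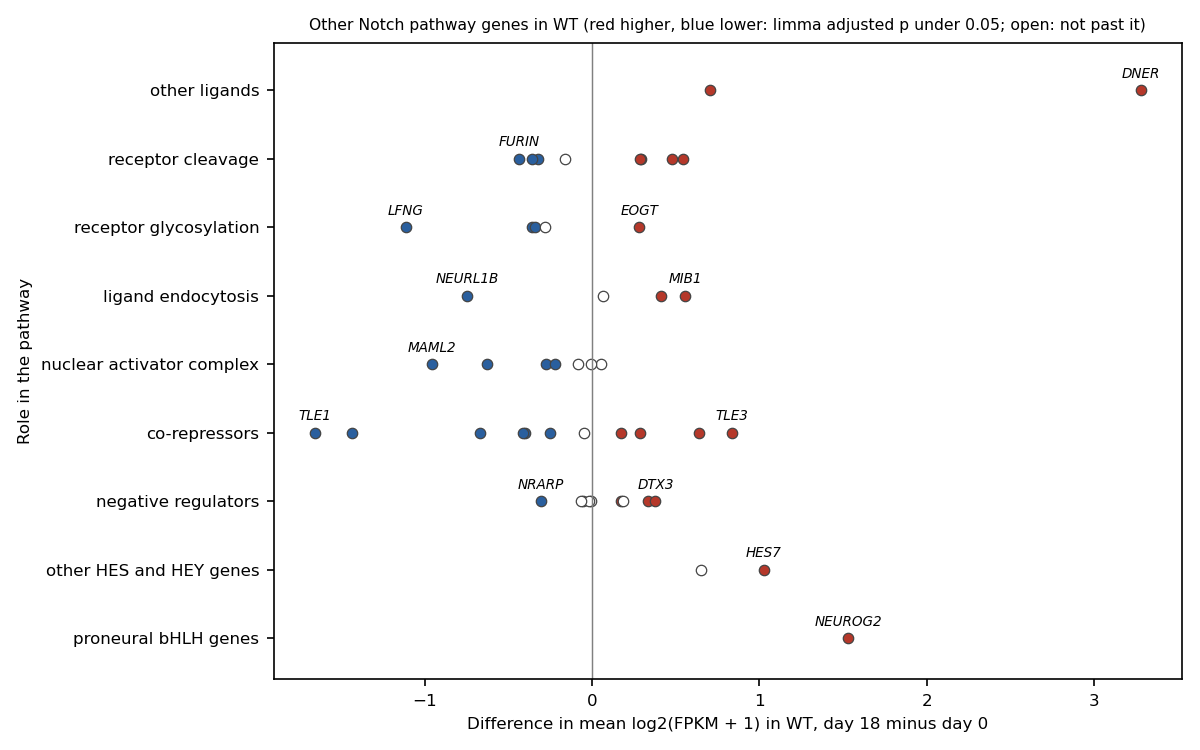
Difference of day 18 minus day 0 in mean log2(FPKM + 1) with WT (horizontal axis) for 49 of the 51 tested genes of the pathway list, by role (vertical axis); red and blue points passed a limma adjusted p of 0.05 as higher and lower, and open points did not. Named genes have the largest rise or fall of their role, from DNER at 3.28 to TLE1 at -1.66. The nuclear activator complex, with 7 genes, has no red point, where 38.2% of all genes tested were higher.

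Markers of cell states moved with the days beside these genes. Neuroblastoma cells are known in a sympathetic-like and a mesenchymal-like state. The summed FPKM of 8 mesenchymal-type markers was 678 to 842 at day 0 and 64.1 to 71.2 at day 18. VIM made up most of this sum on both days and fell from a mean of 565 to 49.3 FPKM with WT. Of the 7 markers tested, 6 were lower in each line, where 34% to 35% of all genes tested were lower. The remaining marker, TWIST2, was higher with WT and passed in neither direction with C14R or the deletion. PRRX1, which defines that state, was at most 2.25 FPKM at day 0 and at or near 0 at day 18. The sum of 8 neuronal markers rose from 879 to 920 FPKM at day 0 to 1700 to 1826 FPKM at day 18, with 7 of 7 tested higher in each line, and RBFOX3 at or below 0.502 FPKM throughout. The sum of 8 markers of Schwann cell precursors and glia was 3.38 to 5.06 and 8.95 to 10.9 FPKM, with both tested markers higher in each line and FABP7 at 0 in all libraries. For the neuronal and glial counts, the share of all genes tested that were higher was 37.9% to 38.6% over the lines. At day 0 the mesenchymal-type sum was 779 to 842 FPKM with the deletion, 714 to 742 with WT and 678 to 717 with C14R. Of the 7 markers tested, 0 passed for the deletion against WT at day 0, beside 0.029% of all genes tested. All 3 receptors were higher in all deletion libraries than in all WT libraries of that day. None of them passed the test (limma adjusted p = 0.828, 0.823 and 0.817 for NOTCH1, NOTCH2 and NOTCH3). How many of all genes tested were separated in this way was not counted. The part of these cell states in the changes of the Notch genes was not tested.

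The genes with the most similar profiles over the 18 libraries were found by the root mean square distance between centred log2(FPKM + 1) values, as a description of profiles that share the change of day. Closest to NOTCH1 were MYH9 and DDX39A (distances 0.081 and 0.083), to NOTCH2 SEC61A1 and CALR (0.042 and 0.048), and to NOTCH3 FTL and NAPA (0.051 and 0.058). HES1 was closest to PTN and LIMK2 (0.16 for both), HES6 to SGSM3 and TMEM159 (0.10 and 0.11) and HEY1 to GPR155 and CLDND1 (0.069 and 0.073). DLL3 was closest to GALNT18 and NICN1 (both 0.11), and JAG1 to CDH2 and FMN1 (0.090 and 0.094). DLK1 had no near neighbour: TFAMP1 and NEUROG2 were the closest of the genes tested, at 0.39 and 0.45. NEUROG2 was highest in C14R replicate 1 at day 18 (5.68 FPKM), where DLK1 was second highest, and lowest in C14R replicate 2 (2.19 FPKM), where DLK1 was also low. It was 3.66 FPKM in C14R replicate 3, where DLK1 was highest. In WT replicates 2 and 3, where DLK1 was lowest, it was 2.53 and 2.34 FPKM. NEUROG2 was named for its likeness to DLK1 in these same libraries, so this likeness is no separate result.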

How the data were processed

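RNA-seq of SH-SY5Y cells gave 18 libraries in 6 groups (construct by day, from the sample titles), 3 per group. TRIzol extraction, DNase I treatment, Ribo-Zero depletion of ribosomal RNA and NEBNext Ultra library preparation are given per the labels' protocols. The values are FPKM per gene symbol as deposited by the authors, and the submitters' processing notes name TopHat2, STAR, Cufflinks 2.2.1 and hg38, without roles; annotation, strand use and any scaling between libraries are not given in the sources used here. FPKM carry no counts, so depth is unknown and no counting interval was possible; 4960 genes were at 0 in all libraries.

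Values were analysed as log2(FPKM + 1), which understates changes of low genes, for the 13785 genes with a mean of at least 1 FPKM. One limma 3.58.1 model (R 4.3.3) was fitted to all 18 libraries with 6 group means, empirical Bayes moderation with a trend, and Benjamini-Hochberg adjustment within each comparison at 0.05; the fit was tested on simulated data. Every adjusted p is from limma. Alternatives were a pseudocount of 0.1, no filter, median-of-ratios scaling, quantile normalization, rescaling after removal of 499 small RNA genes, a replicate block, array weights, only the libraries compared, and each library left out. All 10 genes are named; of the pathway list, the largest rise and fall of each role with WT, and any gene passing between constructs; some genes this rule selects are not reported here. For each gene tested, the 2 nearest profiles are named. HES4, RBPJ, RTL1, MEG3, NOTCH2NL, DTX3L, TLE2 and MAML3 fall outside this rule and were chosen after their values were seen; single markers of cell states come from the marker lists. The members and lists were chosen with earlier results of these data known. Positions are from GENCODE release 29 (GRCh38), matched by symbol; promoters are from RefSeq (GRCh38.p14), which held 6 of the 10 genes.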

Additional observations from a re-analysis of the deposited data

Results flagged for a closer look

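JAG1 with C14R and NOTCH2 with the deletion moved from one side of WT to the other between the days, with every variant library on the same side of every WT library at each day. JAG1 with C14R was -0.17 from WT at day 0 and 0.15 at day 18 on the log2(FPKM + 1) scale. The interaction with day was 0.32 (95% interval 0.079 to 0.57), with a limma p of 0.0125 that did not pass adjustment over all genes (adjusted p = 0.747). NOTCH2 with the deletion was 0.084 at day 0 and -0.082 at day 18, with an interaction of -0.17 (-0.32 to -0.0092) and a limma p of 0.0393 (adjusted p = 0.638). Both differences are thus flagged by the separation of the libraries, not by a test that passed. The share of all genes separated in this way was not counted.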

How the results depend on the processing

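No difference that passed the test reversed under any alternative run. The counts of the 9 genes tested that passed from day 0 to day 18 were 6 to 8 with WT, 6 to 7 with C14R and 7 to 8 with the deletion when single libraries were left out, and those of the 51 pathway genes 36 to 41, 38 to 41 and 38 to 43. The share of all genes that passed from day 0 to day 18 in these fits is not given here. Between constructs, C14R against WT at day 18 had 0 to 1 of the 9 genes and 0 to 2 of the pathway genes over the same fits: DLK1, DTX3L and MAML3 passed without replicate 2 of C14R at day 18, when 0.914% of all genes did. With array weights 1 of the 9 genes (DLK1) and 2 pathway genes (DTX3L and TLE2) passed in that comparison, and 2 pathway genes (DTX3L and TLE2) in the deletion against WT at day 18, with 1.49% and 0.689% of all genes passing; the cause was not tested. The call of DLL3 with C14R from day 0 to day 18 was lost with no filter, median-of-ratios scaling, quantile normalization and only the libraries compared (adjusted p = 0.0611, 0.0526, 0.0555 and 0.0683). Deviations from the group means of same-numbered libraries correlated between -0.36 and 0.17 over 45 pairs (median -0.0071). Those of libraries with different numbers correlated between -0.17 and 0.27 over 90 pairs (median -0.00055). A replicate block changed no call of the 9 genes. Whether same-numbered libraries shared a culture or batch was not tested beyond this.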

Other observations

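MEG3, a non-coding RNA of the imprinted region that holds DLK1, was looked at after the values were seen. It was 0.156, 0.142 and 0.129 FPKM in the 3 C14R libraries of day 18, at most 0.0451 FPKM in the other 6 libraries of day 18, and at most 0.00849 FPKM at day 0, levels below the filter of the test. C14R replicate 2 was with the other C14R libraries for MEG3 but not for DLK1.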
